A study of Homo sapiens with 2 samples.

Results

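Cells can be placed between an epithelial and a mesenchymal state by the transcripts of their junctions, intermediate filaments, transcription factors and matrix. The 49 genes described here are 28 epithelial and 21 mesenchymal state genes. Their members are all probe sets (groups of short array probes read out as 1 value) that the platform's annotation gives to 1 of these genes and to no other. There were 109 such probe sets for 48 of the 49 genes, out of 41097 probe sets for 19775 genes in all. The exception was ESRP2, whose probe set is annotated to more than 1 gene. The study measured the human lung adenocarcinoma cell line CL1-0 on 2 Affymetrix expression arrays: 1 for an FSTL1 antibody given for 0 h and 1 for the same antibody given for 6 h. The labels call the cells type II alveolar cells, and state that the cells had been stably transduced and kept under puromycin, without naming the construct. Cells kept for 6 h without antibody were not analysed here, so that time in culture and antibody cannot be told apart. FSTL1 (follistatin-like 1) is a glycoprotein that cells secrete.

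Epithelial cells hold together through E-cadherin junctions, tight junctions that seal the space between cells, and desmosomes that anchor keratin filaments. In the epithelial-mesenchymal transition (EMT), transcription factors of the ZEB, SNAI and TWIST families bind E-box motifs, repress E-cadherin and other junction genes, and cells gain vimentin, N-cadherin and matrix proteins. In lung adenocarcinoma this state is known to vary between cell lines, and many lines hold features of both sides.

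With a single array per time, the error between replicates is unknown, and none of the differences below was tested for significance or checked in a replicate. The unit is the intensity of a probe set as deposited, on a linear scale. A value was taken as measured when it lay above an assumed background floor of 45.4, the 50th percentile of the values of both arrays, on at least 1 array. Values under the floor were set to it before log2 was taken. Values within 2 times the floor (90.8) are called near the floor, since nothing deposited separates them from background; this limit was chosen after the values were seen. Probe sets differ in how strongly they bind, so a gene is placed by its own level against the floor and by the percent of all probe sets of the array that lay lower, never as an amount relative to another gene. Where a gene had several probe sets, the brightest stands for it. The others are given beside it for many genes but not for all, so a lone pair of values need not be the only set. Median intensity was 45.8 at 0 h and 44.9 at 6 h. Over all measured genes the median log2 difference, 6 h minus 0 h, was 0.02 with an SD of 0.19 across 12669 genes, and probe sets of the same gene scattered with a pooled SD of 0.16.

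The CL1-0 cells had signal for a part of each programme. VIM, the mesenchymal filament protein, the EMT factor ZEB1, and the junction genes TJP1, OCLN, DSP and JUP were all well above the floor at both times. In contrast, E-cadherin (CDH1), EPCAM, the splicing factor ESRP1, the epithelial factor GRHL2 and claudin-1 (CLDN1) lay under it on every probe set and both arrays. So did the mesenchymal factors ZEB2 and SNAI2 and the matrix protein SPARC. Of the 27 epithelial genes with a probe set, 19 were measured (70.4%), 9 of them above 2 times the floor on both arrays (33.3%). Of the 21 mesenchymal genes, 13 were measured (61.9%), 4 of them above 2 times the floor on both arrays (19.0%). Among all genes of the array with a named probe set 64.1% were measured and 49.5% passed the higher level. In RNA from a whole culture, fewer cells with a transcript and less transcript per cell cannot be told apart.

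**Figure D1:**
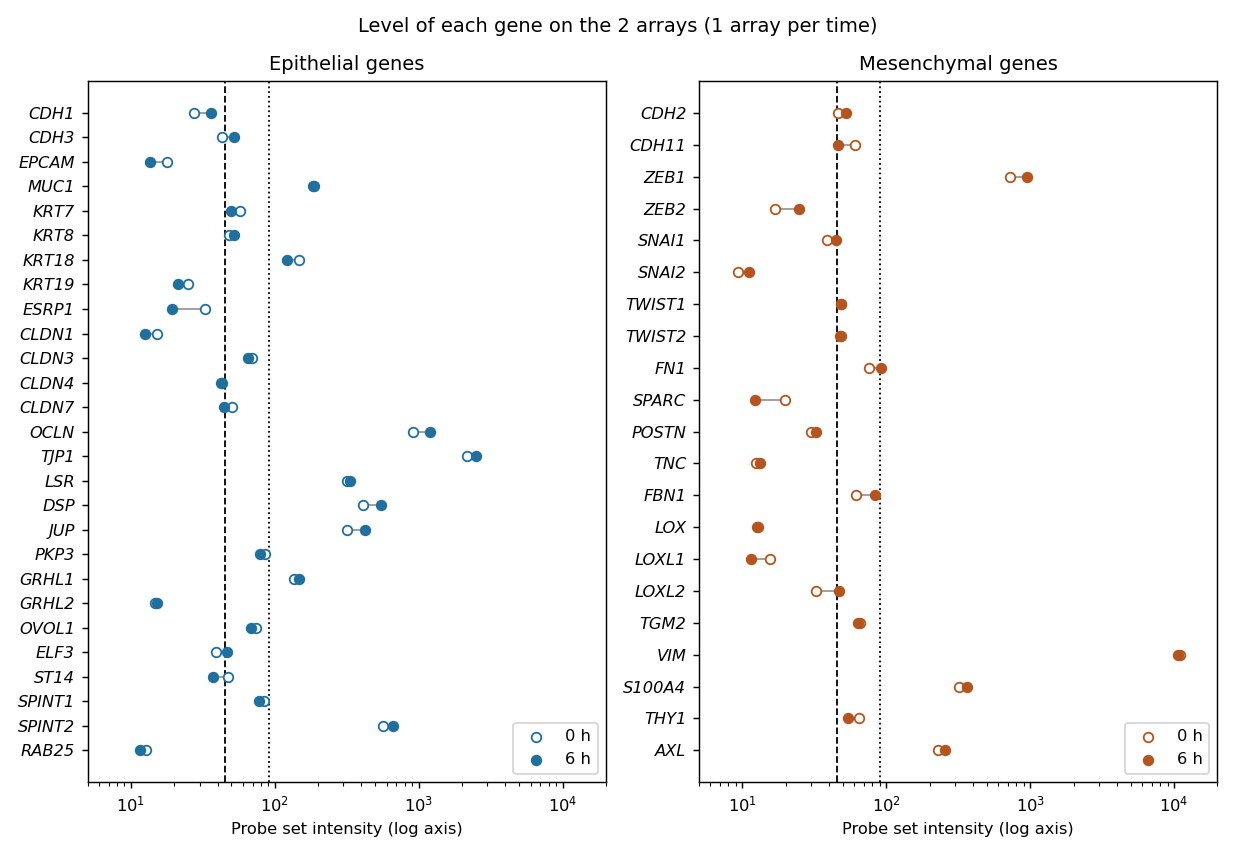
Intensity of the brightest probe set of each gene (horizontal log axis) at 0 h (open circles) and 6 h (filled circles), 1 array per time, for 27 epithelial genes (left) and 21 mesenchymal genes (right). The dashed line is the assumed floor of 45.4 and the dotted line 2 times that floor (90.8); VIM lies near 10959 and 10693, and CDH1 lies left of the dashed line at both times.

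Of the cadherins, the adhesion receptors of adherens junctions, no member was clearly above background. CDH1 had an intensity of 27.4 at 0 h and 36.0 at 6 h on its brighter probe set, above 37.0% and 44.6% of all probe sets. Its other set was at 12.6 and 15.0. Both sets read higher on the array at 6 h, but all 4 values lay under the floor, so no direction is given. P-cadherin (CDH3) went from 43.3 to 52.3, crossing the floor. N-cadherin (CDH2), the cadherin usually gained in EMT, was at 46.4 and 52.2, with its other set at 10.5 and 14.9. CDH11, a cadherin of osteoblasts and mesenchymal cells, was at 60.2 and 46.5 on its single measured set, and its other 3 sets lay between 6.23 and 15.1. The 4 cadherins therefore did not place the cells on either side.

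Keratins, the filament proteins of epithelia, were low. KRT18 was the 1 keratin above 2 times the floor, at 148.2 and 120.9. KRT8, its usual filament partner, was at 48.1 and 52.4. Both rest on a single probe set whose identifier ends in _x_at, a class of probes that can also bind related transcripts, and both genes have many pseudogenes. KRT7 was measured on 1 of its 4 sets, at 57.7 and 49.8, with the other 3 between 7.58 and 22.6. KRT19 was at 24.9 and 21.3, under the floor. On the surface side, EPCAM, an epithelial adhesion molecule, was at 17.9 and 13.6, whereas the mucin MUC1 was at 183.5 and 187.0 on its brightest set. The second set of MUC1 was at 35.1 and 48.3 and another at 27.1 and 34.3.

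Of the 7 tight junction genes, TJP1, OCLN and LSR passed 2 times the floor on both arrays, and the 4 claudins did not. TJP1, the scaffold protein ZO-1, was at 2178 and 2496, above 95.8% and 96.4% of all probe sets, with its other set at 193.6 and 199.0. OCLN, the transmembrane protein occludin, was at 909.4 and 1190, with its other 3 sets at 259.6 and 251.3, 88.6 and 102.9, and 59.4 and 56.5. LSR, which recruits proteins to the corners where 3 cells meet, was at 317.3 and 332.8. Both sets of TJP1 and the brighter 2 of OCLN were thus above 2 times the floor, and the other 2 of OCLN were near it. The claudins form the seal itself. CLDN3 was at 69.0 and 65.0 with a second set at 18.7 and 21.0, and CLDN7 went from 50.5 to 44.5. CLDN4 (42.5 and 42.7) and CLDN1 (15.2 and 12.6) lay under the floor. Claudins of the further lists differed from each other: CLDN12 was well above the floor at 696.5 and 667.6, and CLDN2 under it at 33.9 and 30.2. Both were named after their values were seen.

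Of the 3 desmosome genes, 2 passed 2 times the floor on both arrays. The plaque protein desmoplakin (DSP) was at 411.1 and 545.0, and plakoglobin (JUP), shared by desmosomes and adherens junctions, at 317.9 and 423.3. PKP3, a plakophilin, was at 85.9 and 78.9 with a second set at 36.6 and 24.2. DSP and JUP each have 1 probe set here. The desmosome list was the 1 epithelial list with all of its genes above the floor on both arrays, 3 of 3. The desmosomal cadherins of the further lists, DSC2, DSC3, DSG2 and DSG3, and the plaque protein EVPL lay under the floor on every set and both arrays, while the plakophilin PKP2 was at 96.1 and 99.0. These were also named after their values were seen.

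Regulators of the epithelial state were mostly near or under the floor. ESRP1, which directs epithelial splice forms, was at 32.8 and 19.3 and its other set at 12.2 and 12.5. GRHL2, which maintains epithelial junction genes, was at 14.6 and 15.1. Its relative GRHL1 was at 136.8 and 148.1, with a second set that went from 54.5 to 41.2. OVOL1, which counters ZEB1, was at 73.9 and 68.7, and the ETS factor ELF3 at 39.2 and 46.6. Within the matriptase system, a surface protease with its inhibitors, the protease ST14 was at 47.5 and 37.5 and the inhibitor SPINT1 at 84.1 and 77.3. The related inhibitor SPINT2 was well above the floor, at 567.2 and 667.3. RAB25, a small GTPase of epithelial membrane recycling, was at 12.8 and 11.6.

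**Figure D2:**
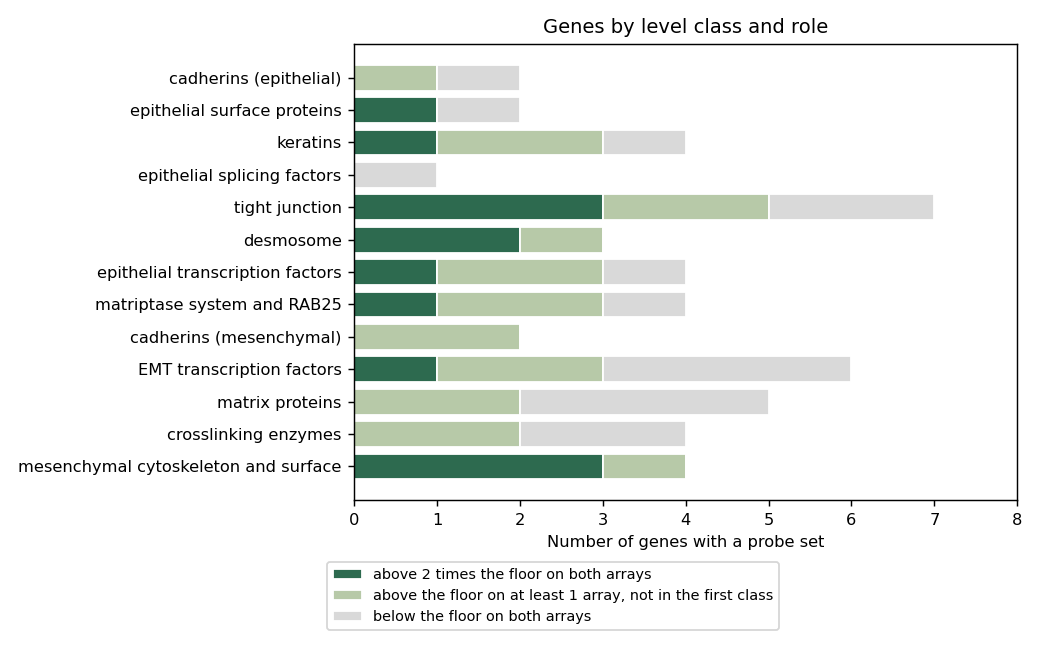
Number of genes with a probe set (horizontal axis) in each role, split into those above 2 times the floor on both arrays, those above the floor on at least 1 array but not in the first class, and those below the floor on both. The tight junction list has 3, 2 and 2 genes in these classes, the desmosome list 2, 1 and 0, and the EMT transcription factors 1, 2 and 3.

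Of the 6 EMT transcription factors among the 49 genes, ZEB1 alone passed 2 times the floor on both arrays. It was at 726.2 and 954.9, above 88.3% and 90.5% of all probe sets, with further sets at 100.8 and 124.5, 63.8 and 72.4, and 23.2 and 31.5. TWIST1 (48.7 and 48.8) and TWIST2 (48.4 and 47.9) were at the floor, and SNAI1 (38.6 and 44.8) lay just under it. The 5 sets of ZEB2 lay between 8.74 and 24.9. SNAI2, the factor also known as Slug, was at 9.26 and 11.05, the lowest brightest set among the 48 genes. Levels of these genes, ZEB1 set apart, cannot be separated from background here.

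Among proteins of the mesenchymal cytoskeleton and surface, VIM was at 10959 and 10693, above 99.5% and 99.4% of all probe sets. Its second set, also of the _x_at class, was under the floor at 40.7 and 34.7. S100A4, a calcium-binding protein of motile cells, was at 317.8 and 363.6. The receptor kinase AXL was at 229.8 and 255.7, with a second set at 69.2 and 52.8. THY1, a surface protein of fibroblasts, was at 64.2 and 54.6. VIM, S100A4 and AXL were thus the mesenchymal genes beside ZEB1 that passed 2 times the floor at both times.

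None of the 5 matrix proteins and 4 crosslinking enzymes among the 49 genes passed 2 times the floor on both arrays, although some matrix genes of the further lists, described at the end, were bright. Fibronectin (FN1) was at 75.5 and 91.3 on its brightest set. A second set was at 72.1 and 89.6, a further set went from 37.2 to 58.4, and the other 4 stayed under the floor. Fibrillin-1 (FBN1) was at 62.0 and 83.3, with its other 2 sets between 11.8 and 20.2. SPARC (19.6 and 12.2), periostin (POSTN, 29.9 and 32.4) and tenascin-C (TNC, 12.5 and 13.2) were under the floor. Of the enzymes that crosslink matrix, transglutaminase 2 (TGM2) was at 66.1 and 63.5 and LOXL2 at 32.5 and 47.0. The lysyl oxidases LOX (12.9 and 12.7) and LOXL1 (15.65 and 11.54) were under the floor.

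In all, 16 of the 48 genes were under the floor on every set and both arrays, 8 epithelial and 8 mesenchymal. Their brightest sets lay between 9.26 and 44.8. A floor at the 40th percentile (30.4) would leave the 6 h value of CDH1 above it. The cell type in the labels was checked through markers of alveolar type II cells, of which 5 of the 8 with a probe set (62.5%) were above the floor, beside 64.1% of all genes. Of these 5, ABCA3, SFTPC and SFTPB passed 2 times the floor on both arrays. ABCA3 was at 173.4 and 207.9. On their brightest sets SFTPC was at 113.3 and 92.3 and SFTPB at 103.8 and 132.7. NAPSA (51.1 and 61.0) and NKX2-1 (56.7 and 68.6) were near the floor. The share is close to that of all genes, so the count does not settle the label. Surfactant protein D (SFTPD, 19.0 and 14.4), the phosphate transporter SLC34A2 (16.8 and 14.8) and LAMP3 (22.2 and 24.4) were under the floor. The 3 measured sets of surfactant protein B (SFTPB) read 113.5 and 86.4, 103.8 and 132.7, and 46.5 and 44.4. Markers of other cells were mostly under the floor, with 1 of 7 for fibroblasts, 1 of 5 for leukocytes and 2 of 6 for endothelium above it. The leukocyte gene, CD79A, was at 135.5 and 118.0, above 2 times the floor on both arrays. The fibroblast gene DCN (50.5 and 41.1) and the endothelial genes PECAM1 (73.5 and 54.5) and ERG (61.9 and 56.6) were near the floor. Summed over the brightest sets of each list, intensity at 0 h and 6 h was 556.3 and 616.1 for alveolar type II cells, 187.2 and 178.7 for fibroblasts, 235.8 and 208.8 for leukocytes and 222.1 and 200.7 for endothelium. These sums are not comparable between lists. Probe sets differ in how strongly they bind, the lists hold 8, 7, 5 and 6 genes with a probe set, and values under the floor are included. No marker was listed at 0, and the part of other cells in the levels was not tested.

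Most of the genes differed little between 0 h and 6 h, and the few larger differences fell on both sides of the state. Of the 32 measured genes, 5 were higher at 6 h by a log2 difference of at least 0.32, called the lower fold limit here: JUP, DSP, OCLN, ZEB1 and FBN1. This is 15.6% of the measured genes, beside 6.28% of all measured genes on the array. CDH11 was the 1 gene lower by at least as much, 3.12% beside 3% of all. No gene of the 32 reached 1.5-fold, which 0.75% of all genes did upward and 0.182% downward. The shares for all genes depended on scaling, with 4.57% higher and 4.004% lower after quantile normalization, where the counts for these genes were 5 and 2. The median log2 difference was 0.04 for the 19 measured epithelial genes and 0.05 for the 13 measured mesenchymal genes, beside 0.02 over all genes. Higher at 6 h were 11 and 8 of them, 59.4% together, beside 54.3% of all.

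**Figure D3:**
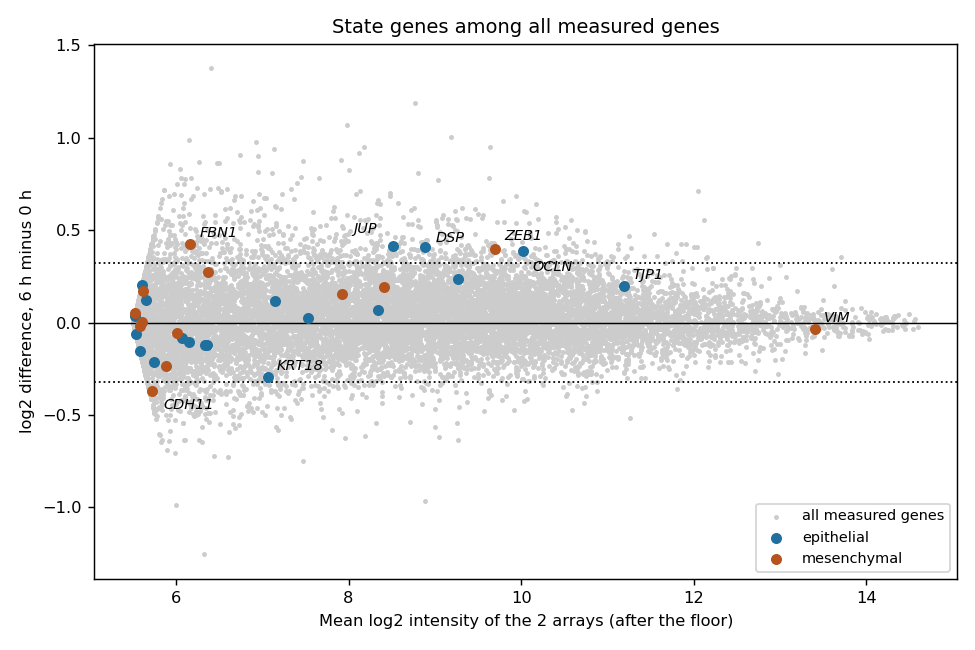
log2 difference (6 h minus 0 h) against the mean log2 intensity of both arrays after the floor, for all 12669 measured genes (grey), the 19 epithelial (blue) and the 13 mesenchymal genes (orange). Dotted lines mark log2 differences of 0.32 and -0.32; JUP, DSP, OCLN, ZEB1 and FBN1 lie above the upper line, CDH11 lies below the lower one and VIM lies near 0.

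JUP was 1.33-fold higher at 6 h (log2 difference 0.41) and DSP 1.33-fold (0.41), each on 1 probe set. The third desmosome gene, PKP3, had a difference of -0.12. OCLN was 1.31-fold higher on its brightest set (0.39), but its 4 sets had differences of 0.39, 0.21, -0.05 and -0.07. The median of the OCLN sets was 0.08, so this difference rests on the brightest. ZEB1 was 1.31-fold higher (0.39) and its 3 measured sets all pointed the same way, at 0.39, 0.30 and 0.18. The median of the ZEB1 sets was 0.30, under the lower fold limit, which only the brightest passed. ZEB1 and the junction genes DSP and JUP were therefore higher on the same array. Under quantile normalization the differences were 0.36 for DSP, 0.35 for JUP, 0.34 for OCLN and 0.34 for ZEB1.

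The sequences before the start sites of JUP, DSP, OCLN and ZEB1 are shown because these genes were higher on the same array. ZEB1 is known to bind the E-box CACCTG, which reads CAGGTG on the other strand. The choice was made after their values were seen. FBN1, also past the lower fold limit upward but near the floor, is not shown. Each line gives the 250 bases before the most upstream RefSeq start on GRCh38.p14, 5′ to 3′ on the strand of the gene. Capitals mark CACCTG or CAGGTG, the only motif searched. DSP lies at chr6:7541421-7541670 (+), JUP at chr17:41786712-41786961 (-), OCLN at chr5:69492297-69492546 (+) and ZEB1 at chr10:31318167-31318416 (+).
DSP: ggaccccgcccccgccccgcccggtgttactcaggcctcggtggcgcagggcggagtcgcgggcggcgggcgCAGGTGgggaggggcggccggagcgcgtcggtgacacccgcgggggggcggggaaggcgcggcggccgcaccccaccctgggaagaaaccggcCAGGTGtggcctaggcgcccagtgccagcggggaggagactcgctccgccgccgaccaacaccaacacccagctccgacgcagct
JUP: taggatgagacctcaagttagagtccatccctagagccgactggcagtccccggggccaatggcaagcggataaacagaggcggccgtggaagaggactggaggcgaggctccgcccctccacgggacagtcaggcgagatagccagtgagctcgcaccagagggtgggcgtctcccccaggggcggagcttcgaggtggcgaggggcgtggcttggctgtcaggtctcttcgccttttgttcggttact
OCLN: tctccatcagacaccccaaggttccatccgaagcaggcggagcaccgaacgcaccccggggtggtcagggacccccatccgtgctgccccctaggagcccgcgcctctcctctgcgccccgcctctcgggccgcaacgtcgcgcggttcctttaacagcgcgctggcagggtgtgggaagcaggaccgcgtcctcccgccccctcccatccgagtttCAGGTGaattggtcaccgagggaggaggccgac
ZEB1: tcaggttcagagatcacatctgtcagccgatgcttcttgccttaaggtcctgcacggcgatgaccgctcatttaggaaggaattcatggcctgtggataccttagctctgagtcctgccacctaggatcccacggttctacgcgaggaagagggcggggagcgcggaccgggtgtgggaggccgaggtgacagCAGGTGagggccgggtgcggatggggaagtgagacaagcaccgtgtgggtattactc

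DSP had 2 matches, at bases 178 to 173 and 85 to 80 before the start. OCLN had 1 match at bases 33 to 28 and ZEB1 1 at bases 57 to 52. JUP had none in this window, and neither had FBN1. Of the 48 genes 29 had an entry in the promoter table, and 9 of the 29 (31.0%) held the motif at least once, 6 of 15 epithelial and 3 of 14 mesenchymal genes. The share was 17.5% among all 27305 genes with a window. Most of the 9 were in the highest signal class. DSP, OCLN, TJP1, MUC1, ZEB1, S100A4 and AXL were above 2 times the floor on both arrays. ELF3 was near the floor and RAB25 under it. JUP, LSR, GRHL1 and VIM, also above 2 times the floor, held no match. Nor did any other gene with an entry that was near or under the floor. Whether the motif goes with level was not tested. CDH1 had no entry.

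Smaller differences were spread over both sides. SPINT2 was higher by 0.23 on the log2 scale, TJP1 by 0.20 and 0.04 on its 2 sets, and S100A4 by 0.19. KRT18 was lower at 6 h, with a log2 difference of -0.29, as was KRT7 with -0.21, while KRT8 was at 0.12. KRT18 passed the lower fold limit only under quantile normalization (-0.34) or with a loess curve removed (-0.33). Fibronectin was higher by 0.27 to 0.36 on its 3 measured sets, and 1 of these has only a bound. FBN1 was 1.34-fold higher (0.43), but near the floor, and a floor at the 60th percentile brought its difference to 0.20. CDH11 was 1.29-fold lower (-0.37) with its 6 h value close to the floor. VIM, the brightest of the 48, had a difference of -0.04.

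Some genes gave sets that went opposite ways or only a bound. AXL was at 0.15 on its brightest set and -0.39 on the other, and TGM2 at -0.06, 0.40 and -0.27 on 3. Neither gene has a settled direction. GRHL1 was at 0.12 and, as a bound, -0.26. With 1 value set to the floor, CDH3 was at least 1.15-fold higher, ELF3 at least 1.03-fold and LOXL2 at least 1.04-fold higher. CLDN7 was at least 1.11-fold and ST14 at least 1.05-fold lower. These bounds rest on the assumed floor and on values near it, so they settle no direction. Sets under the floor differed: as given, those of LOXL2 were at -0.06, -0.22 and -0.32. Those of ELF3 were at -0.46 and 0.14, and those of ST14 at 0.57 and -0.20. The remaining measured genes (MUC1, LSR, CLDN3, OVOL1, SPINT1, CDH2, TWIST1, TWIST2 and THY1) had differences from -0.23 to 0.17. The sign turned between scalings for MUC1 (-0.02 after quantile normalization), TWIST1 (-0.02 after centring) and TWIST2 (0.01 after quantile normalization).

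**Figure D4:**
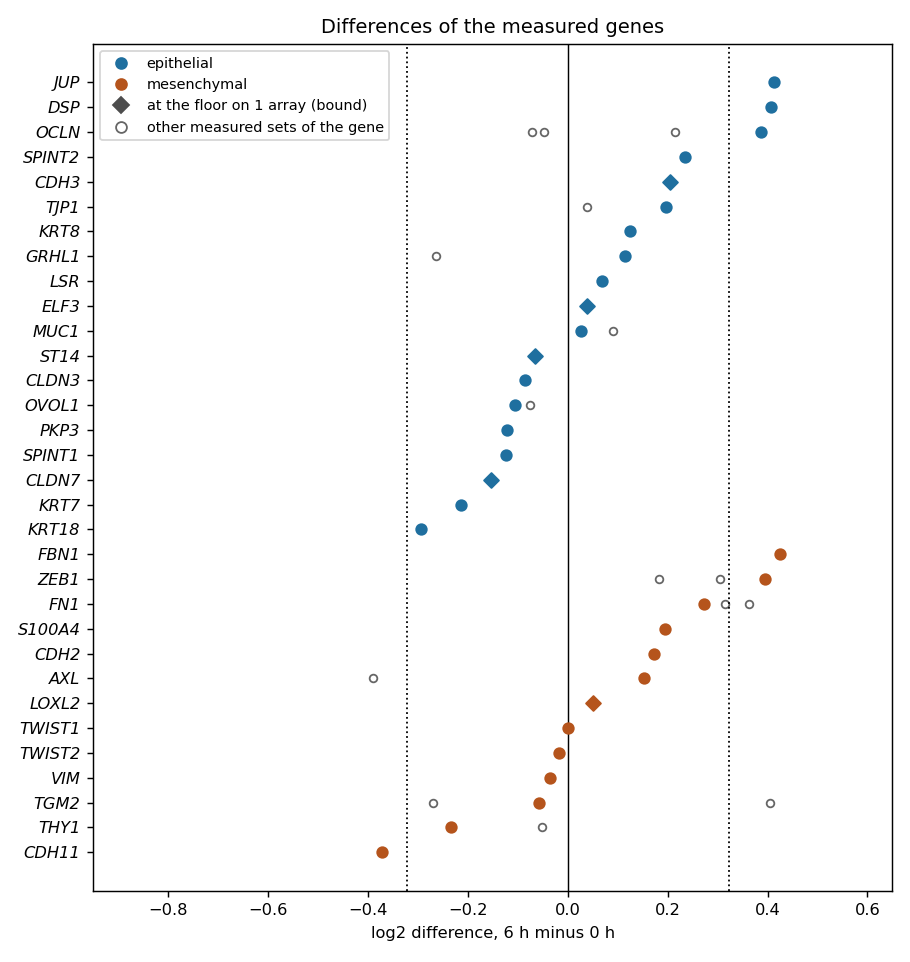
log2 difference (6 h minus 0 h) of the 32 measured genes, sorted within epithelial (blue) and mesenchymal (orange) genes. Filled symbols are the brightest probe set of each gene, diamonds mark genes at the floor on 1 array, open circles are further measured sets, and dotted lines mark 0.32 and -0.32; the open circles of OCLN, AXL and TGM2 lie far from their filled symbols.

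Other genes of the same state were taken from lists of 122 further genes, chosen with earlier results of these data known. A probe set was there for 108, and 60 were measured (55.6%, beside 64.1% of all genes). Higher by at least the lower fold limit were 9 of the 60 (15.0%), beside 6.28% of all measured genes. Lower by as much were 2 (3.33%), beside 3% of all. The median log2 difference was 0.06, beside 0.02 over all genes. The same shares of all genes stand beside the counts of each list below. In the other tight junction and polarity genes, 12 of 14 were measured and 3 passed the lower fold limit upward, 0 downward. They were the polarity adaptor PARD6B (589.4 to 886.4, 0.59), the junction scaffold PATJ (239.3 to 310.2, 0.37) and the tricellular protein MARVELD2 (51.6 to 64.8, 0.33). On brightest sets PARD6B was the 1 gene of these lists past 1.5-fold, by a narrow margin at 1.504-fold. Only 1 of its 3 sets was measured. The share of all genes past 1.5-fold upward was 0.75%. The second measured set of PATJ was at 0.07. In the other desmosome and adherens junction genes, 9 of 14 were measured and 0 passed the lower fold limit either way. PPL, a plakin, was at -0.16, the adherens adaptor AFDN at 0.12 and PKP4 at 0.12 on their brightest sets.

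The catenins that tie cadherins to actin were bright although none of the 4 cadherins above was clearly over the floor. CTNNB1 was at 6188 and 6573 and CTNNA1 at 5594 and 5600, and the tight junction receptor CXADR at 1449 and 1784. These 3 genes were named after their values were seen. Further keratins stayed under the floor in 7 of 7 genes, with values from 6.56 to 30.2. Other epithelial state genes were measured in 11 of 21, with 1 past the lower fold limit in each direction. The factor KLF5 was higher (250.8 to 350.7, 0.48, second set 0.27) and FOXA1, a lung epithelial factor, lower (66.1 to 51.2, -0.37), near the floor. GATA6 was at 0.22.

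Other EMT transcription factors were measured in 4 of 13. TCF3, which encodes the E2A proteins, was at 2838 and 3304 (0.22), but its 13 measured sets ranged from -0.52 to 0.44. HMGA2, a chromatin protein, was at 5308 and 5063 (-0.07) and PRRX2 at 225.7 and 219.4 (-0.04). Contractile genes were measured in 11 of 13, with 2 past the lower fold limit upward and 0 downward. The calponin CNN3 (321.1 to 418.9) was at 0.38, with a second set at 0.10, and CALD1 (236.7 to 296.3) at 0.32, with 4 sets from -0.37 to 0.32. The tropomyosin TPM4 was at -0.19.

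Other mesenchymal matrix and surface genes were measured in 13 of 26, with 3 past the lower fold limit upward and 1 downward. COL6A1 (483.0 to 653.5) was at 0.44 and the ligand WNT5A (274.0 to 369.0) at 0.43, with a second set at 0.12. The third gene upward, ROR1, was near the floor (48.7 to 61.7, 0.34), with a second measured set at 0.06. ROR1 was named after its values were seen. COL1A1 was at -0.36 on its brightest set and 0.94 on the other, and COL6A1 had 3 sets from -0.23 to 0.44. FBLN1 (327.1 and 378.6 on its brightest set) and LOXL3 (155.1 and 157.4) were also above 2 times the floor, and like COL5A2 were named after their values were seen. The 5 sets of FBLN1 had differences from -0.24 to 0.24. In contrast, 13 genes of this list were under the floor on every set and both arrays. Among them were COL1A2, COL3A1, COL5A1, COL6A3, MMP2, FBLN5, BGN and VCAN. The fibrillar collagen COL5A2 was at 7866 and 9316, with both sets higher (0.24 and 0.28). CD44, a hyaluronan receptor often used as a mesenchymal marker and also named afterwards, was under the floor on all 13 of its sets.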

How the data were processed

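RNA of CL1-0 cells was measured on 1 array at 0 h and 1 array at 6 h. Each deposited value is the linear intensity of a probe set, made by the authors with MAS5 per the submitters' processing notes; its version, parameters and any scaling between arrays are not given in the sources used here. The method subtracts local background and mismatch signal, so dim values are noisy.

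Probe sets were named through the platform annotation, with symbols updated by Entrez identifier (41043 of 41097 matched a RefSeq gene table of GRCh38.p14); those with several genes (1801) or none (11777) were left unnamed. Values were floored at the pooled 50th percentile and put on log2, and each gene was represented by its set with the highest mean. With 1 array per group no test was run, and the number of arrays limits the precision. Counts at the lower fold limit (log2 0.32) and at 1.5-fold and medians are set beside those of all genes. Genes of the further lists were named as the 3 measured with the largest absolute difference. Steps were tested on simulated data. The members and lists were chosen with earlier results of these data known. Alternatives were other floors, no floor with log2(value + 16), centring, quantile and loess scaling (span 0.3), the median of sets, and leaving out _x_at and _s_at sets. Python 3.11.15, pandas 2.3.3 and statsmodels 0.14.6 were used.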

Additional observations from a re-analysis of the deposited data

How the results depend on the processing

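Over the 8 alternatives the median log2 difference lay between 0.005 and 0.09 for epithelial genes and between 0.0007 and 0.20 for mesenchymal genes; the scatter between probe sets of a gene was 0.16. Of the 225 values of single genes under an alternative, 215 moved by less than that scatter, 10 by more, and 0 reversed a difference past the lower fold limit. Only genes past that limit could count as reversed, and many alternatives leave the value of a gene unchanged. Among the smaller differences, AXL (-0.12) and GRHL1 (-0.07) changed sign with the median of sets. TGM2 (0.40) did so without _x_at and _s_at sets. With the floor at the 60th percentile 12 epithelial and 7 mesenchymal genes were measured (19 and 13 in the report) and 0 were lower by the lower fold limit. With it at the 40th percentile 7 mesenchymal genes, in place of 4, passed 2 times the floor and 2 genes were lower by the lower fold limit. With no floor all 21 mesenchymal genes count as measured. Without _x_at and _s_at sets 10 epithelial and 4 mesenchymal genes were measured, 4 and 1 passed 2 times the floor (9 and 4 in the report), and 0 were lower by the lower fold limit, since JUP, VIM, S100A4 and CDH11, among others, were measured by such sets alone. Quantile and loess scaling each gave 2 genes lower by the lower fold limit. With the median of a gene's sets 3 genes were higher by the lower fold limit in place of 5. The level of 2 times the floor and its alternatives were chosen after seeing the data. No paired analysis was possible because each group has 1 array. No replicate could be left out for the same reason.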

Other observations

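Agreement between probe sets of a gene was limited. Of the 10 state genes with at least 2 measured sets, 6 had all sets on the same side of 0, and of all 6122 such genes 3143 did. ZEB1, FN1, TJP1, MUC1, OVOL1 and THY1 were the 6, and OCLN, GRHL1, TGM2 and AXL were the others.

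Some values under the floor stood in the same direction on all sets of a gene, which gives no measured difference. The 5 sets of ZEB2 had log2 differences of the values as given between 0.11 and 0.57, and the 2 sets of CDH1 had 0.25 and 0.39. ESRP1, in contrast, had -0.77 and 0.04.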
